A study of Mus musculus with 15 samples.

Results

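The genes described here are the chemokines, interleukins, tumour necrosis factor (TNF) family members, interferon genes and their receptors that the wild-type or E-OEX tables of the mouse uterine epithelium list. They were chosen by symbol: every gene listed in those tables whose name begins with Cxcl, Cxcr, Ccl, Ccr, Il followed by a digit, Tnf or Ifn was taken, except Cxcl15, Il6st and Il13ra2. This gave 85 entries of the 28269 genes listed in at least 1 table. Of them 68 are in the wild-type tables, 52 are in the E-OEX tables, 35 are in both and 83 are in the U-OEx tables. Another 93 genes with such names are listed in the U-OEx tables only and were not taken. By role the 85 are 6 CXC ligands, 11 CC ligands, 6 chemokine receptors, 16 interleukins, 19 interleukin receptors, 7 TNF ligands, 12 TNF receptors, 4 TNF-induced genes and 4 interferon genes or receptors. Roles were assigned from the symbol alone, so the TNF ligands include Tnfsf13os, an antisense gene, and the TNF-induced genes are those named Tnfaip. The symbol Ccl21a stands for 2 of the entries, ENSMUSG00000094686 and ENSMUSG00000095320. With Ccl21b they are near-identical copies among which reads can be split, so their values are uncertain.

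RNA was sequenced from the surface lining of the uterine cavity, the luminal epithelium or LE, and from the glands beneath it, the glandular epithelium or GE. The labels give the time as day 4. There were 5 groups of 3 libraries: wild-type LE, wild-type GE, E-OEX LE, E-OEX GE and U-OEx LE. The labels give the genotype of both E-OEX and U-OEx animals as overexpression of Notch1, the receptor gene whose overactivation the series' title names as its subject. E-OEX and U-OEx are used as names only. The transgene, the promoter or Cre that drives it, the strain, the age and what day 4 is counted from are not given in the sources used here. Nothing says that the 3 libraries of a group came from separate animals, so p-values measure the spread between libraries, which may be technical.

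Chemokines are small secreted proteins that attract leukocytes: CXC ligands such as Cxcl2 and Cxcl5 act mainly on neutrophils, and CC ligands act on monocytes, eosinophils and lymphocytes. Interleukin 1 and TNF are alarm cytokines that switch on NF-kB, which in turn raises the transcription of many chemokine genes. In the uterus the epithelium is itself a source of cytokines around the time of implantation, and the number of leukocytes in the tissue changes with steroid hormones. RBPJ, the DNA-binding partner of the cleaved Notch receptor, recognises a core with the letters TGGGAA.

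Promoter windows are shown for 3 genes on which the results turn: Il1b and Cxcl2, which had the largest fitted rises in U-OEx LE, and Il17rb, which was lower in every comparison made for it with wild type. The windows are RefSeq sequence upstream of the annotated start on build GRCm38.p6, written 5′ to 3′ on the gene's strand. Bases of the Cxcl2 window that lie inside the GENCODE gene were left out, so the last base printed for Cxcl2 is 29 bases before the RefSeq start. Positions below are counted from the RefSeq start. Capitals mark a match to the NF-kB motif or to TGGGAA on either strand.
Il1b, minus strand of chr2:129371140-129371389: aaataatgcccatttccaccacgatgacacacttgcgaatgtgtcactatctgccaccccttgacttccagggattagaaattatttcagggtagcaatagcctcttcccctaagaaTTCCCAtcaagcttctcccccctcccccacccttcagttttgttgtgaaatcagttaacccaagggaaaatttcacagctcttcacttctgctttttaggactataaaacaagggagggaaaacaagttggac
Cxcl2, plus strand of chr5:90903649-90903870: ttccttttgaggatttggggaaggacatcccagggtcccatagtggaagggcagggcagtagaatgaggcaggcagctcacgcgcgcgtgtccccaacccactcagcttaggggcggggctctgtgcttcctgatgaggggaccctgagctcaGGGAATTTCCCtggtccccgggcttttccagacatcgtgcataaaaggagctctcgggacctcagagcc
Il17rb, minus strand of chr14:30008897-30009146: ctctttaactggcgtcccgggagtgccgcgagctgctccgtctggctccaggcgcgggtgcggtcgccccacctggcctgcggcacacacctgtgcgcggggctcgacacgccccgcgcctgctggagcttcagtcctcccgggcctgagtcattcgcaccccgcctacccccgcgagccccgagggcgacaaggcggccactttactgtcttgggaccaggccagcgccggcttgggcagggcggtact
The Il1b window holds TGGGAA on the opposite strand, 133 to 128 bases before the start. The Cxcl2 window holds 2 overlapping NF-kB matches on opposite strands, from 97 to 87 bases before the RefSeq start. The Il17rb window holds no match to either motif. RefSeq windows were found for 63 of the 85 genes. In the 250 bases before the start, the NF-kB motif was in 16.5% of their 79 windows and in 7.25% of all 32851 windows in the table. TGGGAA was in 32.9% of their windows and in 21.6% of all. A match is a run of letters, and no binding was measured.

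Values are scaled read counts, which are reads divided by 1 factor per library, called scaled reads below. The listed genes held 3818041 to 4797424 reads in the wild-type libraries, 1980800 to 3494859 in the E-OEX libraries and 13541644 to 14981505 in the U-OEx libraries. For wild type and E-OEX these sums run over lists holding only genes differing at least 2-fold between GE and LE in that genotype, so they are not sequencing depths. The luminal marker Calb1 ran from 17811 to 44990 scaled reads in wild-type LE, 190 to 552 in wild-type GE, 1346 to 9677 in E-OEX LE and 209 to 254 in U-OEx LE. Lpar3, a further luminal marker, ran from 6184 to 7940, 195 to 273, 819 to 3003 and 215 to 307 in the same groups, and Wnt7a from 2958 to 5006, 3.79 to 9.52, 1738 to 6406 and 1343 to 2811. Each was lower in U-OEx LE than in wild-type LE, with log2 changes of -7.03, -4.70 and -1.07. The 5 gland markers listed in every table (Spink1, Cxcl15, Calca, Lif and Foxa2) summed to 45.6 to 92.2 in wild-type LE, 1011 to 1389 in U-OEx LE, 20530 to 28955 in wild-type GE and 4384 to 5927 in E-OEX GE. These sums hide differences between the markers. Means of Lif, Foxa2 and Cxcl15 were 591, 530 and 122 in U-OEx LE against 38.8, 10.3 and 7.36 in wild-type LE. Those of Spink1 and Calca were 0 and 0.947 against 8.38 and 3.79. In E-OEX GE the mean of Foxa2 was 2265 against 2364 in wild-type GE, and it was not called. The GE libraries carried more signal of other tissue layers than the LE libraries: 8 stromal markers summed to 34795 to 100567 in wild-type GE against 408 to 7878 in wild-type LE.

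In wild-type epithelium the chemokine ligands of the CC class lay on the glandular side. All 10 listed CC ligands were higher in GE, with a median log2 difference of 3.58 between group means plus 1, and all 8 listed in E-OEX were again higher in GE, with a median of 3.42. The TNF receptors lay mostly on the luminal side, with 3 of 11 higher in GE in wild type and 1 of 5 in E-OEX. Across all roles, 38 of 68 genes were higher in wild-type GE, a share of 55.9% against 57.0% of all 6414 listed genes, and 29 of 52 in E-OEX GE, 55.8% against 63.9%. Because listing required such a difference, these directions are a description and were not tested. The summed stromal, smooth muscle and endothelial markers were also higher in the GE libraries, and their part in the CC ligand levels was not tested.

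Among the luminal genes, Il17rb (ENSMUSG00000015966, chr14:29996135-30008896), a receptor subunit for interleukin 25, stood highest per length. Its mean per kilobase of exon was 8815 scaled reads in wild-type LE, followed by 2419 for Cxcl17, a mucosal chemokine, and 486 for Ifngr2, a subunit of the interferon gamma receptor. In wild-type GE Il17rb was again first at 2860, followed by Il13ra1, a subunit shared by receptors for interleukins 4 and 13, at 408. At the other end, Il20, Tnfsf14, Ccr3, Ccr7, Ifng, Il1rl1 and the Ccl21a entry ENSMUSG00000094686 had no read in any wild-type LE library. A count of 0 allows up to 3 reads per library.

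The 35 genes listed in both genotypes kept the side on which they lay, 20 on the glandular side and 15 on the luminal side in both. Listing also selected for this, so the agreement supports nothing by itself. The plot of the glandular against luminal difference in both genotypes shows Cxcl12 farthest to the upper right and Il20 well under the diagonal.

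**Figure D1:**
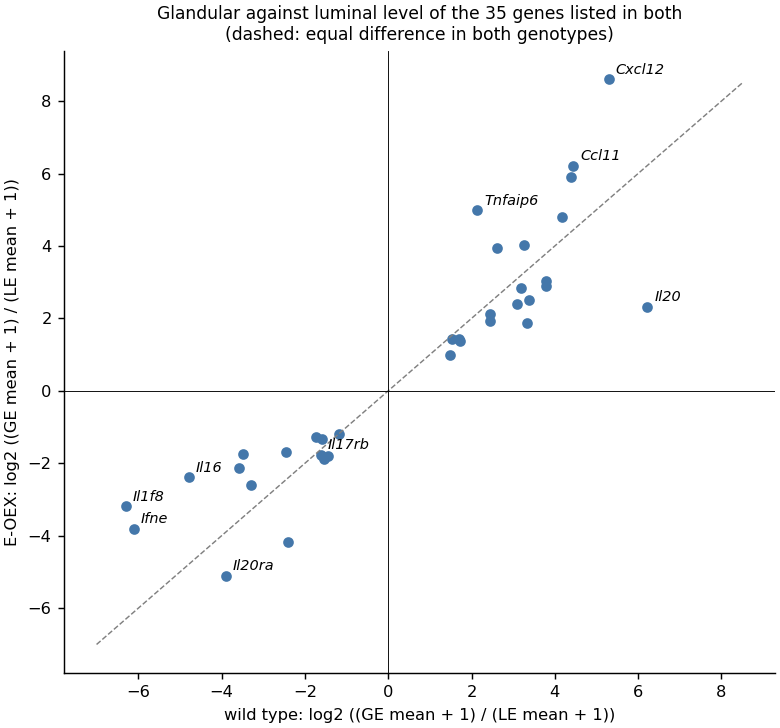
Each point is a gene listed in both genotypes. The horizontal axis is the log2 difference between the mean GE and mean LE values (each plus 1) in wild type and the vertical axis is the same in E-OEX. All 35 points lie in the lower left or upper right of the plot, and Il20 falls from 6.21 in wild type to 2.32 in E-OEX.

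The comparison of U-OEx LE with wild-type LE asks how luminal expression differs in the U-OEx form of Notch1 overexpression. Most of the alarm cytokines and chemokine ligands tested were higher in U-OEx LE. Of 65 genes tested, 34 were higher and 8 were lower (limma, adjusted p under 0.05 over all genes tested). Over all 5949 genes tested, 56.9% were called, 29.1% higher and 27.8% lower. The share of cytokine and receptor genes was 52.3% higher and 12.3% lower. Their median log2 fold change was 1.70, or 1.43 with 5 genes set at the bound that their zero counts allow, against 0.09 over all genes. The groups did not overlap for 44 of the 65 (background 63.8%), 35 of them higher (32.7%) and 9 lower (31.2%). An unadjusted p under 0.05 was reached by 47, where the background was 61.5%.

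The calls are given next by the side of the epithelium on which a gene is listed in wild type. Of 35 tested genes on the glandular side, 25 were higher in U-OEx LE, 71.4% against 44.2% of all glandular-side genes. On that side 1 of 35 was lower, 2.86% against 7.56%. Of 30 on the luminal side, 9 were higher, 30.0% against 11.6%. On the luminal side 7 of 30 were lower, 23.3% against 51.2%. The listing itself used the wild-type LE libraries, so a gene listed as low in LE had low values there by selection.

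**Figure D2:**
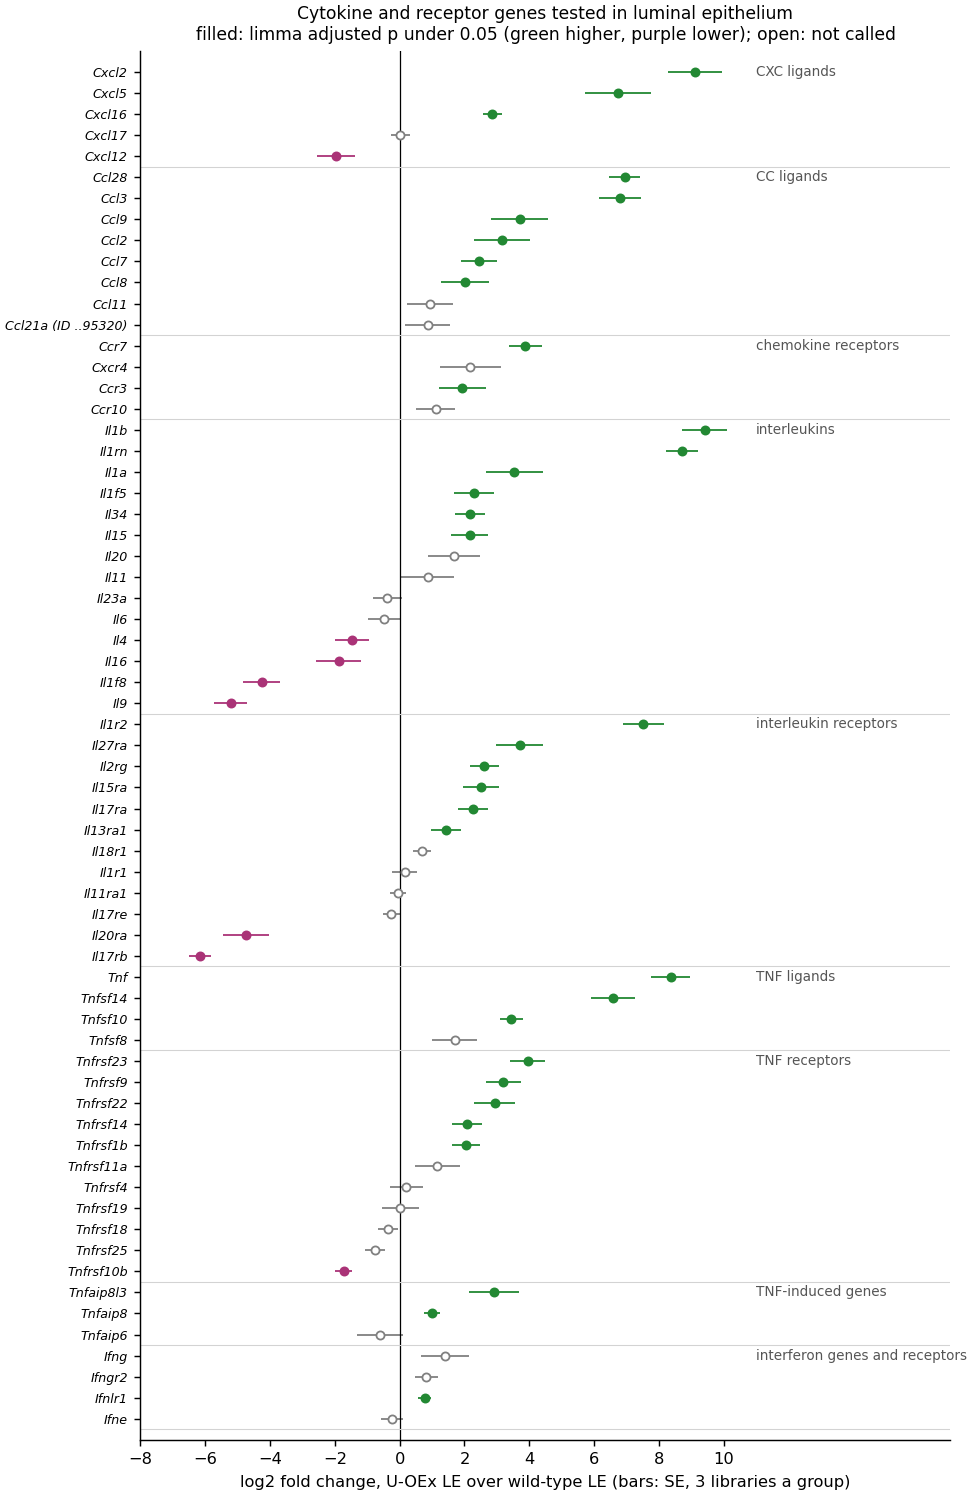
Each row is a gene and the horizontal axis is the limma log2 change of U-OEx LE over wild-type LE with its SE as a bar. Rows are grouped by role, filled points passed the threshold, and the largest values belong to Il1b, Cxcl2, Il1rn and Tnf, while Il17rb is lowest at -6.16. The fitted values of Tnfsf14, Ccr7, Ccr3 and Il9 rest on a group without reads and depend on the pseudocount of 1.

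Among the CXC ligands, 3 of 5 were higher and 1 was lower. Cxcl2 (ENSMUSG00000058427, chr5:90903871-90905938), a neutrophil attractant, had 3.11, 10.2 and 1.12 scaled reads in wild-type LE replicates 1 to 3 and 4744, 794 and 4588 in U-OEx LE. The lowest U-OEx library was far above the highest wild-type library, and the log2 fold change was 9.12 (SE 0.83, limma adjusted p = 6.4e-05). Cxcl5, another neutrophil attractant, had 10.4, 184 and 57 in wild-type LE and 12307, 1734 and 7176 in U-OEx LE, a log2 change of 6.74 (SE 1.01, adjusted p = 0.000763). Cxcl16, a membrane-bound chemokine and scavenger receptor, varied little within its groups, with 269, 178 and 183 in wild-type LE and 1763, 1310 and 1535 in U-OEx LE, and rose by 2.86 (SE 0.29, adjusted p = 0.000111). Cxcl12, the ligand of Cxcr4, went the other way. It had 16.6, 23.6 and 8.94 in wild-type LE and 3.68, 1.78 and 4.80 in U-OEx LE, a log2 change of -1.97 (SE 0.58, adjusted p = 0.02), and this call was lost without U-OEx LE replicate 1 (adjusted p = 0.0546) or 2 (adjusted p = 0.0692). Cxcl17 had a log2 change of 0.02 (SE 0.29) and was not called.

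Of the 8 CC ligands tested, 6 were higher and none was lower. Ccl28 (ENSMUSG00000074715, chr13:119623819-119654359), a chemokine of mucosal epithelia that draws antibody-secreting cells, had 37.3, 14.3 and 12.3 scaled reads in wild-type LE and 3120, 2159 and 2241 in U-OEx LE. These U-OEx values lie above those of wild-type GE, which were 451, 239 and 277 on the deposited scale. This is a log2 change of 6.94 (SE 0.47, limma adjusted p = 1.73e-05). Ccl3, a macrophage inflammatory protein, had 2.07, 5.12 and 6.71 in wild-type LE and 1009, 219 and 916 in U-OEx LE, a log2 change of 6.80 (SE 0.66). Ccl9, another macrophage inflammatory protein, went from 0, 5.12 and 11.2 to 51.5, 59.5 and 48, by 3.70 (SE 0.87, adjusted p = 0.00717). Ccl2, the main monocyte attractant, rose by 3.15 (SE 0.86), and its highest wild-type LE library held 7.17 scaled reads. Ccl2 was not called by edgeR (adjusted p = 0.0623) or DESeq2 (adjusted p = 0.0507), nor without wild-type LE replicate 3 (adjusted p = 0.0626) or U-OEx LE replicate 3 (adjusted p = 0.0547). Ccl7 and Ccl8 rested on few reads, 20 against 1 and 19 against 2 over the 3 libraries, which gives ratios of 17.2 (exact 95% counting interval 2.75 to 712) and 8.16 (1.97 to 72.3). Ccl8 was not called by edgeR (adjusted p = 0.0849) or DESeq2 (adjusted p = 0.136), nor without wild-type LE replicate 1 (adjusted p = 0.107), wild-type LE replicate 2 (adjusted p = 0.116), U-OEx LE replicate 1 (adjusted p = 0.149) or U-OEx LE replicate 3 (adjusted p = 0.116).

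The interleukin 1 family held both large rises and a fall. Il1b (ENSMUSG00000027398, chr2:129364570-129371139), the secreted alarm cytokine, had 3.11, 1.02 and 5.59 scaled reads in wild-type LE and 3389, 981 and 5359 in U-OEx LE, a log2 change of 9.41 (SE 0.69, limma adjusted p = 2.44e-05). Its antagonist Il1rn (ENSMUSG00000026981, chr2:24336853-24351494) rose alongside, from 6.22, 7.17 and 2.24 to 3571, 1495 and 2791, by 8.72 (SE 0.50, adjusted p = 9.85e-06). The decoy receptor Il1r2 had 2.07, 2.05 and 3.35 in wild-type LE and 707, 252 and 1445 in U-OEx LE, a log2 change of 7.52 (SE 0.63). So the agonist, its antagonist and its decoy were all higher, with no overlap between the groups. Il1a, the membrane and nuclear form of interleukin 1, had 6.22, 45.1 and 49.2 in wild-type LE and 569, 96.9 and 471 in U-OEx LE, and rose by 3.53 (SE 0.88, adjusted p = 0.00976). Il1f5, an antagonist of the interleukin 36 receptor, rose by 2.30 (SE 0.61). The signalling receptor Il1r1 had a log2 change of 0.15 (SE 0.39) and was not called. Il1f8, an interleukin 36 agonist on the luminal side, went down from 133, 366 and 158 to 4.59, 9.78 and 18.2, a log2 change of -4.26 (SE 0.58, adjusted p = 0.000463).

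Outside that family, Il34, a ligand of the Csf1 receptor, and Il15, a growth factor of natural killer cells, were higher by 2.18 (SE 0.46) and 2.17 (SE 0.57), and the receptor chain Il15ra was higher by 2.51 (SE 0.56). The Il15 call was lost without U-OEx LE replicate 3 (adjusted p = 0.0545). Il9, a cytokine of mast cells and T cells, had 44.5, 35.8 and 27.9 scaled reads in wild-type LE and no read in any U-OEx library, so it was at least 13.4-fold lower. Il4 and Il16 were lower by smaller amounts, with log2 fold changes of -1.48 (SE 0.53, limma adjusted p = 0.0437) and -1.88 (SE 0.70, adjusted p = 0.0499). Both were lost in most of the fits without 1 library: for Il4 in each of those without wild-type LE replicate 2 (adjusted p = 0.089) or 3 (0.0597) or U-OEx LE replicate 1 (0.094), 2 (0.146) or 3 (0.123), and for Il16 in those without wild-type LE replicate 1 (0.137) or 3 (0.138) or U-OEx LE replicate 1 (0.112) or 2 (0.163). Il6, Il11, Il20 and Il23a were not called.

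Il17rb had the deepest fall among the genes with reads in every library. Its scaled reads were 16001, 44945 and 37081 in wild-type LE and 423, 490 and 368 in U-OEx LE, a log2 change of -6.16 (SE 0.34, limma adjusted p = 9.06e-06). Other subunits of interleukin 17 receptors gave different values: Il17ra, the common subunit, was higher by 2.27 (SE 0.46) and Il17re had a log2 change of -0.26 (SE 0.26). Il20ra, a receptor subunit for interleukins 19, 20 and 24, had 31.1, 29.7 and 71.5 in wild-type LE against 0, 0 and 2.88 in U-OEx LE, 123 reads against 3, which is a ratio of 47.7 (exact 95% counting interval 16 to 235). Il27ra, a receptor chain found mainly on leukocytes, had 1.04, 5.12 and 0 in wild-type LE and 37.7, 18.7 and 35.5 in U-OEx LE, and rose by 3.70 (SE 0.73, adjusted p = 0.00323). Il2rg, the chain shared by receptors of interleukin 2 and its relatives, was higher by 2.61 (SE 0.45). Il13ra1 was higher by 1.43 (SE 0.47, adjusted p = 0.0306) and was not called by edgeR or DESeq2, nor without wild-type LE replicate 1 (adjusted p = 0.0669) or 3 (0.104) or U-OEx LE replicate 1 (0.0972), 2 (0.0564) or 3 (0.0948). In all, 6 of 12 interleukin receptors were higher and 2 were lower. Among 4 chemokine receptors, Ccr7, the homing receptor of dendritic and T cells, had no read in wild-type LE and 12.9, 18.7 and 10.6 scaled reads in U-OEx LE, a rise of at least 4.33-fold. Cxcr4, the Cxcl12 receptor, had 499, 33.8 and 60.4 in wild-type LE and 380, 343 and 789 in U-OEx LE. It was not called (log2 change 2.18, adjusted p = 0.0803) but was called without wild-type LE replicate 1 (adjusted p = 0.000802). Ccr3, the eosinophil receptor, was at least 1.27-fold higher, on 13 reads against 0. Its call was lost in edgeR (adjusted p = 0.055) and DESeq2 (0.0945), and without wild-type LE replicate 1 (0.0752), 2 (0.0822) or 3 (0.111) or U-OEx LE replicate 2 (0.0639).

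Of the 4 TNF ligands tested, 3 were higher. Tnf (ENSMUSG00000024401, chr17:35199381-35202007) had 1.04, 7.17 and 2.24 scaled reads in wild-type LE and 1708, 699 and 1607 in U-OEx LE, a log2 change of 8.36 (SE 0.59, limma adjusted p = 2.01e-05). Tnfsf14, a ligand of Tnfrsf14, had no read in wild-type LE against 100, 40 and 209 in U-OEx LE, a rise of at least 36.2-fold. Tnfsf10 (ENSMUSG00000039304, chr3:27317028-27342427), the death ligand TRAIL, had 403, 210 and 445 in wild-type LE and 4826, 3715 and 2896 in U-OEx LE, a log2 change of 3.45 (SE 0.36). Its death receptor Tnfrsf10b moved in the opposite direction, from 1716, 1143 and 1548 to 493, 473 and 375, a log2 change of -1.73 (SE 0.27, adjusted p = 0.000992). Tnfrsf23, a decoy receptor for the same ligand, went from 11.4, 12.3 and 13.4 to 234, 97.8 and 397, by 3.96 (SE 0.54, adjusted p = 0.000469). Tnfrsf22, a further decoy, was higher by 2.93 (SE 0.62). Tnfrsf9, Tnfrsf14 and Tnfrsf1b, the larger TNF receptor, were higher by 3.20, 2.09 and 2.04 (SE 0.54, 0.46 and 0.43). In all 5 of 11 TNF receptors were higher and 1 was lower.

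Among the genes grouped as TNF-induced by their symbol alone, Tnfaip8 was higher by 1.01 (SE 0.25) and Tnfaip8l3 by 2.91 (SE 0.78). Whether TNF induced them here was not tested. The Tnfaip8l3 call was lost without wild-type LE replicate 3 (limma adjusted p = 0.0509), U-OEx LE replicate 1 (0.0527) or U-OEx LE replicate 3 (0.0585). Of the interferon genes and receptors only Ifnlr1, a subunit of the interferon lambda receptor, was called, with a log2 change of 0.77 (SE 0.21). Ifne, the epithelial interferon epsilon, had 79.8, 104 and 148 scaled reads in wild-type LE and 85.5, 94.2 and 96 in U-OEx LE, values that overlap.

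Of 69 genes that relay or damp these signals, 19 were tested in U-OEx LE against wild-type LE. Over all genes tested 56.9% were called, 29.1% higher and 27.8% lower. Of the 19, 8 were higher and 4 lower. The higher ones were Irak3 (log2 fold change 6.20), Nfkbie (5.24), Ripk3 (3.76), Socs1 (1.50), Nfkbiz (1.15), Jak3 (1.14), Arrb1 (2.45) and the atypical chemokine receptor Ccrl2 (4.24). The lower ones were Myd88 (-4.01), the adaptor below the interleukin 1 receptor, Traf1 (-3.38), Socs7 (-2.29) and Pias3 (-1.21). Irak3, Nfkbie and Socs1 among the higher genes, and Socs7 and Pias3 among the lower ones, are known as negative regulators of cytokine or NF-kB signalling.

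The 3 U-OEx libraries were unequal in these genes. Replicate 2 was the lowest of the 3 for 27 of the 34 genes that were higher, 79.4%, against 40.4% of all 1729 genes that were higher. For Il1b, Cxcl2, Cxcl5, Il1a and Il1r2 the highest library exceeded the lowest by 5.46, 5.98, 7.10, 5.87 and 5.73 times. Most leukocyte markers were also lowest in replicate 2. The exceptions, in replicates 1 to 3, were Cd74 (3159, 1776 and 1641), C1qb (231, 264 and 434), C1qc (155, 156 and 286) and Cd79a (9.19, 8.0 and 4.8). The 24 leukocyte markers, all listed in the U-OEx tables, summed to 27899, 8513 and 40725 scaled reads in replicates 1 to 3. The neutrophil genes S100a8 and S100a9, the largest terms of this sum in replicates 1 and 3, had 6694, 456 and 10773, and 7533, 617 and 13079. The pan-leukocyte gene Ptprc had 1570, 441 and 2705. None of these 3 markers was analysed in wild type. Of 7 leukocyte markers that the wild-type tables list, 5 were higher in U-OEx LE, and their sum was 2424, 1421 and 1555 in wild-type LE and 7421, 4554 and 6930 in U-OEx LE. The part of leukocytes in the cytokine levels was not tested, and in bulk libraries fewer cells of a type and less RNA per cell cannot be told apart.

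Other risen genes varied little among the U-OEx libraries. The highest library exceeded the lowest by 1.06 times for Tnfrsf22, 1.11 for Ifnlr1, 1.17 for Tnfaip8, 1.24 for Ccl9, 1.35 for Cxcl16, 1.41 for Il13ra1 and 1.44 for Ccl28. Within this smaller spread Ifnlr1, Tnfaip8, Cxcl16, Il13ra1 and Ccl28 were again lowest in replicate 2. Tnfrsf22 was lowest in replicate 1 and Ccl9 in replicate 3. Tnfsf10, at 1.67 times, was lowest in replicate 3. Without U-OEx LE replicate 2, 32 genes were higher and 5 were lower, and without replicates 1 and 3 in turn the counts were 31 and 5, and 30 and 7.

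**Figure D3:**
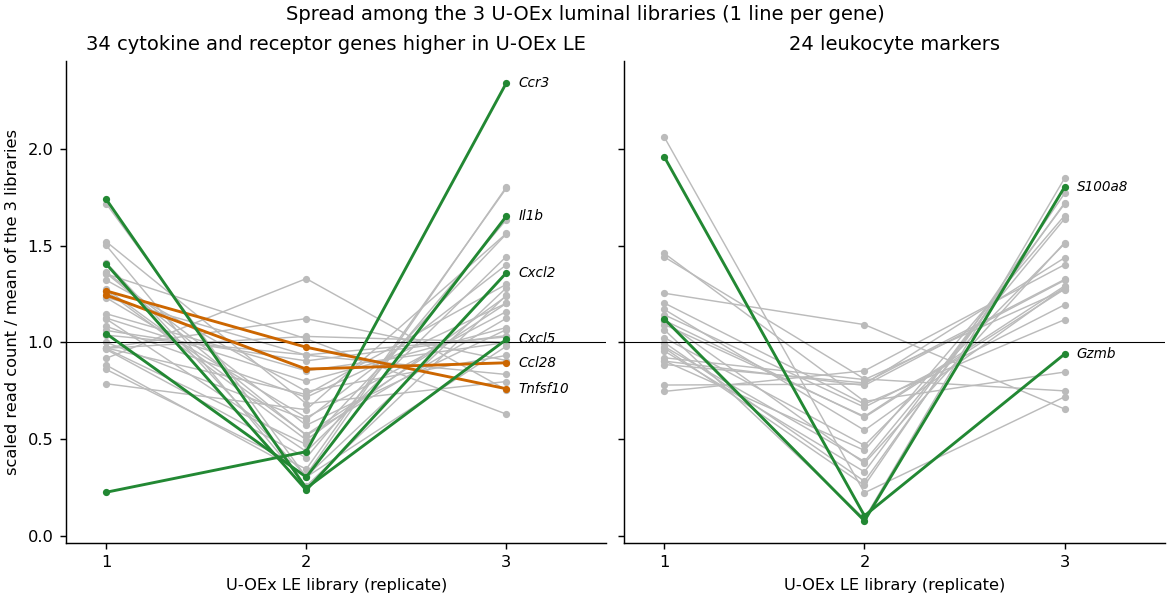
Each line is a gene, and the vertical axis is its scaled read count in each U-OEx luminal library divided by the mean of the 3. The left panel shows the 34 cytokine and receptor genes that were higher than in wild-type LE and the right panel the 24 leukocyte markers. Most lines dip at replicate 2 in both panels, while Ccl28 and Tnfsf10 (orange) stay near the mean of 1.

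The comparison of E-OEX LE with wild-type LE asks the same question of the E-OEX form, and it shares its wild-type libraries with the comparison above. Few genes could be compared, because 50 of the 85 were not listed in both genotypes and 9 more were under a mean of 1 scaled read. Il1b, Tnf, Cxcl2, Il1rn and Ccl28 are among those not analysed in E-OEX. Of 26 tested, 3 were lower and 0 were higher (limma, adjusted p under 0.05), and 5 passed an unadjusted p of 0.05 (background 25.6%). The background was 10.7% called, 5.12% higher and 5.54% lower. The groups did not overlap for 7 of the 26 (background 29.9%), 2 of them higher (15.1%) and 5 lower (14.8%). edgeR called 2 and DESeq2 called 3 of the 26, all lower.

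Il17rb was lower in E-OEX LE too, with 3165, 3955 and 11291 scaled reads against 16001, 44945 and 37081 in wild-type LE. No E-OEX library reached the lowest wild-type library, and the log2 fold change was -2.69 (SE 0.59, limma adjusted p = 0.0202). The call was lost without wild-type LE replicate 2 (adjusted p = 0.0643) or 3 (0.106) or E-OEX LE replicate 1 (0.0998) or 2 (0.0841). Il1f8 had 133, 366 and 158 in wild-type LE and 35.6, 22.7 and 2.16 in E-OEX LE, a log2 change of -3.98 (SE 0.89, adjusted p = 0.0214), lost without wild-type LE replicate 2 (0.0711) or 3 (0.0873) or E-OEX LE replicate 2 (0.0586). Cxcl12 had 16.6, 23.6 and 8.94 in wild-type LE and 1.83, 3.63 and 0 in E-OEX LE, a log2 change of -2.90 (SE 0.80, adjusted p = 0.048). Its call was kept in 2 of 13 alternatives and was lost whichever library was left out, with adjusted p = 0.0667, 0.12 and 0.129 without wild-type LE replicates 1 to 3 and 0.129, 0.0752 and 0.113 without E-OEX LE replicates 1 to 3. In the same contrast the 8 stromal markers tested had a median log2 fold change of -1.39, with none called, and their part in the Cxcl12 value was not tested. Il15 and Il27ra, at log2 changes of 1.69 (SE 0.71, adjusted p = 0.169) and 1.81 (SE 0.81, adjusted p = 0.198), did not pass although their groups did not overlap. Without wild-type LE replicate 2 or 3, or without E-OEX LE replicate 2, 0 genes were called, and without E-OEX LE replicate 1 there was 1.

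In glandular epithelium, E-OEX against wild type gave 4 calls among 34 genes tested, 3 lower and 1 higher, where the background was 23.5% called, 13.8% lower and 9.72% higher. The groups did not overlap for 13 (background 40.5%), 7 of them higher (18.6%) and 6 lower (21.9%). At an unadjusted p under 0.05 there were 12 (background 35.4%), and edgeR called 4 while DESeq2 called 5. Il17rb had 12225, 9736 and 9844 scaled reads in wild-type GE and 1093, 2479 and 1862 in E-OEX GE, a log2 change of -3.08 (SE 0.29, limma adjusted p = 0.000136). Il20 (ENSMUSG00000026416, chr1:130906985-130911451), a cytokine acting on epithelia, had 44.8, 85.3 and 89.1 in wild-type GE and 8.01, 5.75 and 2.81 in E-OEX GE, a log2 change of -3.95 (SE 0.49, adjusted p = 0.00047). Both kept the call in all 13 alternatives run. Neither gene's groups overlapped. Ccl8, a monocyte attractant, had 34.1, 14.2 and 20.8 in wild-type GE and 3, 12.6 and 3.75 in E-OEX GE, a log2 change of -2.25 (SE 0.59, adjusted p = 0.0226), and was lost without wild-type GE replicate 1 (0.132) or 3 (0.0646) or E-OEX GE replicate 3 (0.0735).

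Tnfrsf1b was the gene that was higher, with 95.4, 72.0 and 54.5 scaled reads in wild-type GE and 344, 183 and 217 in E-OEX GE. Its log2 fold change was 1.25 (SE 0.36, limma adjusted p = 0.0329), and the call was lost without wild-type GE replicate 2 (0.0842) or 3 (0.116) or E-OEX GE replicate 1 (0.0559) or 3 (0.053). How many genes joined it varied with the fit and the scaling, and DESeq2 called 2 higher. Over all genes the median log2 change was 0.05 on the jointly rescaled values and 0.50 on the deposited values, where 11 of the 34 were called, 8 of them higher. Among all calls the higher ones made up 41.3% on the first scale and 71.6% on the second. On the deposited scale the added genes were Ccl2, Ccl11, Cxcl16, Il15, Il1r1, Tnfrsf11a and Tnfrsf14, with log2 fold changes of 1.19 to 1.77. None of them passed on the first scale in the limma fit of all libraries without a block. With a replicate block Cxcl16 (limma adjusted p = 0.0169) and Tnfrsf11a (0.0469) passed on that scale. Cxcl16 also passed there without wild-type GE replicate 2 (limma adjusted p = 0.025), and in DESeq2 on the reads (adjusted p = 0.0201). Smooth muscle markers were higher in E-OEX GE for 4 of 5 tested and gland markers were lower for 4 of 5. Their part in these results was not tested. Without wild-type GE replicate 3, 2 genes were called.

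**Figure D4:**
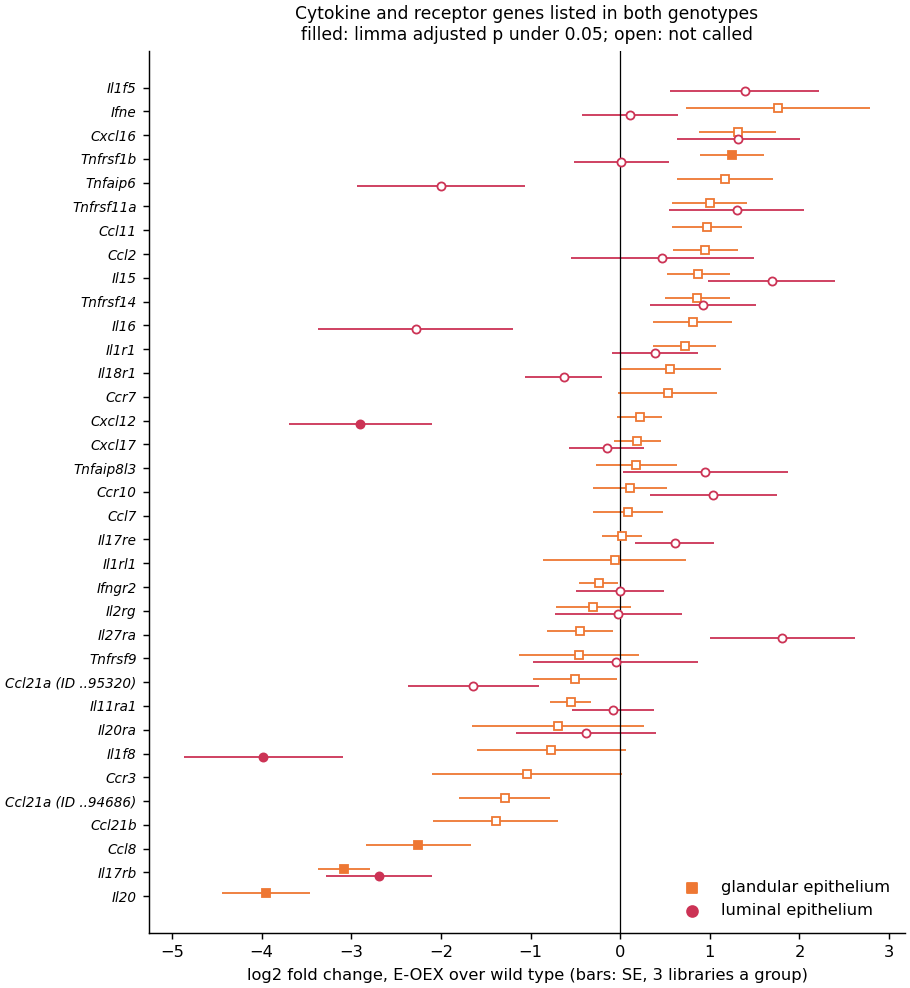
Each row is a gene listed in both genotypes. The horizontal axis is the limma log2 change of E-OEX over wild type, with its SE as a bar, in glandular (orange squares) and luminal (red circles) epithelium. Il17rb is filled, past the threshold, in both epithelia, at -3.08 and -2.69, and most other points are open.

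Whether the genotype difference itself differed between the epithelia was tested as an interaction, on 35 genes. It was called for 2 of them, 1 higher and 1 lower, where the background was 10.7% called, 5.83% higher and 4.91% lower. An unadjusted p under 0.05 was reached by 8 (background 24%). Cxcl12 had 613, 867 and 549 scaled reads in wild-type GE and 803, 1120 and 1349 in E-OEX GE. These overlap, and the GE change of 0.22 was not called (limma adjusted p = 0.594). In LE its log2 change was -2.90, on 2, 4 and 0 reads in the E-OEX LE libraries. Its genotype difference was thus 3.47 higher (SE 0.80, limma adjusted p = 0.015) in GE than in LE on the log2 scale, mostly through the lower LE values. This interaction call was lost with a pseudocount of 0.1 (adjusted p = 0.0648) and without wild-type GE replicate 3 (adjusted p = 0.0504). For Il20 the interaction was -3.84 (SE 0.67, adjusted p = 0.00346), but the 6 LE libraries held 1 read of Il20 in all, and edgeR (adjusted p = 0.176) and DESeq2 (adjusted p = 0.0796) on the reads made no call. For Il17rb the interaction was -0.10 (SE 0.70, adjusted p = 0.96), and for Tnfrsf1b it was 1.54 (SE 0.70, adjusted p = 0.2). Markers of other layers had interactions too, with medians of 3.51 for smooth muscle, 2.33 for endothelium and 1.75 for stroma. Called higher were 3 of 5, 1 of 6 and 0 of 8 of them. Of 5 gland markers 3 were called lower, with a median of -3.36. Their part in the Cxcl12 and Il20 values was not tested. In simulated data of this design, changes were planted only in genes above a minimum read count. Among those a true 4-fold interaction was called for 11% of genes and a 16-fold one for 69%, so moderate differences between the epithelia were mostly not detectable. These rates do not cover genes with fewer reads. Without wild-type GE replicate 3 the call on Il20 was the single call left.

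**Figure D5:**
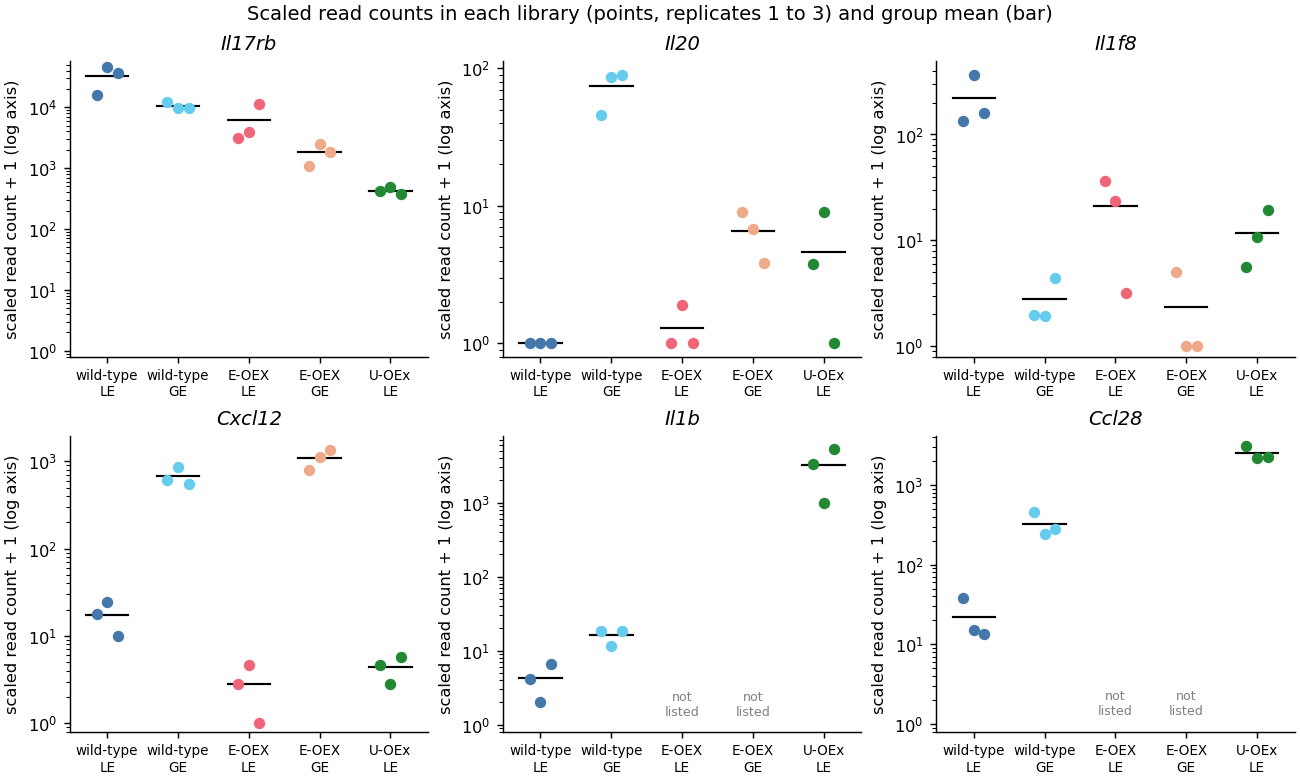
Each point is a library and each bar a group mean of 3 libraries, on a log axis of the scaled read count plus 1. Il17rb steps down from wild-type LE to U-OEx LE, Il20 is seen mainly in wild-type GE, Cxcl12 is high in both GE groups, and Il1b and Ccl28 are highest in U-OEx LE and were not analysed in E-OEX.

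Few of the 69 signalling genes could be tested in E-OEX. In LE 5 were tested and Rel, an NF-kB subunit, was lower (log2 fold change -1.84, limma adjusted p = 0.0388). In GE 7 were tested, and the scavenging receptor Ackr3, which binds Cxcl12, was higher by 0.93 (adjusted p = 0.0385), while Ackr2, which scavenges CC ligands, was lower, with a log2 change of -2.29 (adjusted p = 0.00665). Rel was also the single interaction call of 7, at 2.99 (adjusted p = 0.00696). Over all genes tested the share called was 10.7% in LE, 23.5% in GE and 10.7% for the interaction.

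The forms were set against each other in LE. Of 47 genes tested, 10 were higher and 2 were lower in U-OEx LE than in E-OEX LE (limma, adjusted p under 0.05), where the background was 15% called, 6.97% higher and 8.05% lower. The groups did not overlap for 25 (background 38.2%), 19 of them higher (20.1%) and 6 lower (18.1%), and 23 reached an unadjusted p under 0.05 (33.2%). Il17rb separated them without overlap, with 423, 490 and 368 scaled reads against 3165, 3955 and 11291, a log2 change of -3.75 (SE 0.50, adjusted p = 0.00522). Il20ra, with 19.2, 21.8 and 98.2 in E-OEX LE and 3 reads in all in U-OEx LE, was lower by a ratio of 51.5 (exact 95% counting interval 17.3 to 253). In E-OEX LE its log2 fold change against wild type was -0.38 (SE 0.78), not called.

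Of the 10 higher genes, 6 were receptors and 3 were chemokine ligands. In E-OEX, Tnfrsf1b and Tnfsf13os were listed on the luminal side and the rest of the higher genes on the glandular side. The lower genes, Il17rb and Il20ra, were on the luminal side. The listing itself used the E-OEX LE libraries, so a gene listed as low or high in LE had such values there by selection. The background was not split by side in this comparison. Ccr7 had no read in E-OEX LE, and its rise in U-OEx LE was at least 4.41-fold. Il2ra, the inducible interleukin 2 receptor chain, had 84.5, 16 and 33.6 scaled reads in U-OEx LE on 145 reads against 3, a ratio of 42.5 (14.3 to 209). Cxcl9, an interferon-induced T cell attractant, had 41.4, 3.55 and 32.7 on 83 reads against 2, a ratio of 36.5 (9.79 to 306). Il6ra, the interleukin 6 receptor, had 122, 33.6 and 21.6 in E-OEX LE and 403, 190 and 552 in U-OEx LE, a log2 change of 2.80 (SE 0.63, limma adjusted p = 0.0236). Il2rg, Tnfrsf9 and Tnfrsf1b were higher by 2.36, 3.03 and 1.75 (SE 0.52, 0.87 and 0.51). Ccl7 and Ccl8 were higher on 20 reads against 1 and 19 against 0, the latter at least 1.85-fold. Tnfsf13os, an antisense gene at the Tnfsf13 locus, was higher by 1.79 (SE 0.51), but no source states that strand was used in counting, so its reads cannot be told from those of Tnfsf13. Of 4 leukocyte markers that the E-OEX tables list, 1 was called, Itgam, at a log2 change of 3.23. The values of the other markers were 0.56 for Cd68, -0.10 for Gzmb and -1.27 for Nkg7. The sum of the 4, which is mostly Itgam in U-OEx LE, was 462, 244 and 310 in E-OEX LE and 1371, 842 and 1619 in U-OEx LE. Their part in the result was not tested.

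Most of these calls depended on single libraries, and several on the method. The calls on Il17rb and Ccr7 were kept in all 13 alternatives, and the count of 12 was 2 without U-OEx LE replicate 1, 3 without U-OEx LE replicate 3, 4 without E-OEX LE replicate 3 and 6 without E-OEX LE replicate 2. Without U-OEx LE replicate 1 the adjusted p was 0.0775 for Il20ra, 0.0625 for Il2ra, 0.115 for Il2rg, 0.115 for Il6ra, 0.118 for Ccl7, 0.131 for Ccl8, 0.141 for Cxcl9, 0.177 for Tnfsf13os, 0.179 for Tnfrsf9 and 0.194 for Tnfrsf1b (limma). In edgeR the calls on Ccl7 (adjusted p = 0.0621), Ccl8 (0.0628), Tnfrsf1b (0.0653), Tnfrsf9 (0.0776) and Tnfsf13os (0.0793) were lost. DESeq2 lost the call on Ccl7 (0.0636), a pseudocount of 0.1 lost those on Tnfrsf1b (0.0641), Tnfrsf9 (0.0717) and Tnfsf13os (0.0566), and quantile normalization lost that on Ccl8 (0.0519). Of 12 signalling genes tested, Ikbke and Bcl3, both acting on NF-kB, were higher by 1.62 and 2.03 (background 6.97% higher). Tnfaip2, a TNF-induced gene, had 18410, 4406 and 3934 in E-OEX LE and 27623, 18169 and 21747 in U-OEx LE. It was not called (adjusted p = 0.0741), although it stood highest per kilobase of exon among these genes in U-OEx LE, at 4517 scaled reads, ahead of Cxcl5 at 3796.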

How the data were processed

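Per the labels' protocols, total RNA came from a Qiagen RNeasy kit and libraries from the NEBNext Ultra kit. The submitters' processing notes name the builds GRCm38 and mm10; the aligner, the counting tool, the strand setting and the scaling are not given in the sources used here. The authors' deposited values are handled as a signal: in each library all values were whole multiples of the smallest positive value, within 0.01 of a whole read for 100% of values, so each library's values are counts over a single factor, and reads were recovered by that step. Gene models that have an identifier but no symbol hold 0.756% to 5.09% of the reads per library and stayed in the tests. The wild-type and E-OEX tables hold only genes with an at least 2-fold GE to LE difference.

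Genes listed in every table compared, with a mean value of at least 1, were tested with limma 3.58.1 (R 4.3.3, lmFit and eBayes with trend) on log2(value + 1), which understates changes of low genes. Benjamini-Hochberg adjustment ran over all genes tested, with a threshold of 0.05. Comparisons between genotypes used recovered reads rescaled together by TMM (edgeR 4.0.16), and the interaction used deposited values. Printed values per library are on the deposited scale. Alternatives were a pseudocount of 0.1, no filter, edgeR's quasi-likelihood test, DESeq2 1.42.0, another scaling, quantile normalization, a replicate block and leaving out each library. A group without reads was set at a floor of 3 reads per library, and ratios on 1 to 3 reads carry an exact 95% interval; both cover counting error only. The fits were tested on simulated counts. Genes are annotated by GENCODE M21, and the 2 entries Ccl21b and Ccl21a (ENSMUSG00000095320) have no match there. Values in every library were given for called genes, at most 15 per comparison and direction in order of fold change, and for others with a known epithelial role; the rest are given by their change or counts. The genes and lists were chosen with earlier results of these data known.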

Additional observations from a re-analysis of the deposited data

Results flagged for a closer look

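The genotype difference of Cxcl12 between E-OEX and wild type was 3.47 higher in GE than in LE on the log2 scale, by the interaction test (limma adjusted p = 0.015). It rested on 2, 4 and 0 reads in the E-OEX LE libraries. Its call was lost with a pseudocount of 0.1 and without wild-type GE replicate 3. The genotype difference of Il20 was lower in GE, by -3.84 (adjusted p = 0.00346), on 1 read in the 6 LE libraries. The part of other tissue layers in either result was not tested. Both are listed because the effects in 2 tissues differed by a test of the difference itself.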

How the results depend on the processing

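The 63 calls of a gene in a comparison were recomputed under the alternatives, which gave 830 values: 702 kept the direction and the side of the threshold, 128 kept the direction without passing it and 0 reversed. Of the calls, 37 were kept under every alternative run, 33 of 42 for U-OEx LE against wild-type LE, 2 of 12 for U-OEx LE against E-OEX LE, 2 of 4 for E-OEX GE, 0 of 3 for E-OEX LE and 0 of 2 for the interaction. edgeR lost 12 calls, DESeq2 6, the pseudocount of 0.1 6, no filter 4, another scaling 4 and quantile normalization 1. The number of genes called for E-OEX GE was 11 on the deposited scale in place of 4. For the interaction it was 1 with a pseudocount of 0.1 and 1 in edgeR, in place of 2. For U-OEx LE against E-OEX LE it was 7 in edgeR and 18 in DESeq2, in place of 12. With 1 library left out at a time, the counts ranged from 0 to 4 for E-OEX LE, from 2 to 4 for E-OEX GE, from 1 to 3 for the interaction, from 36 to 42 for U-OEx LE against wild-type LE and from 2 to 16 for U-OEx LE against E-OEX LE. The cause was not tested. Over all genes, DESeq2 called 453 for E-OEX LE in place of 277 and 501 for the interaction in place of 315, and with 1 library left out the calls over all genes ranged from 56 to 322 for E-OEX LE (277), from 362 to 728 for E-OEX GE (670), from 179 to 449 for the interaction (315) and from 60 to 904 for U-OEx LE against E-OEX LE (642). For E-OEX LE the share of higher calls over all genes was 48% on the main scale and 58.6% on the deposited scale, and for the interaction it was 54.3%, against 43.9% with reads rescaled together and 42.9% with quantile normalization.

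Libraries with the same replicate number did not deviate together throughout: no comparison had a correlation over 0.1 in all 3 pairs. The check showed no pairing by number, and with 3 libraries a group it could not exclude one. Under a replicate block the calls were 7 for E-OEX GE in place of 4, 2 for E-OEX LE, 2 for the interaction, 42 for U-OEx LE against wild-type LE and 11 for U-OEx LE against E-OEX LE, and 5 of the 63 calls were lost: Cxcl12 in E-OEX LE (adjusted p = 0.0505), Ccr3 (0.0542) and Il4 (0.0698) in U-OEx LE against wild-type LE, and Ccl8 (0.0543) and Cxcl9 (0.0574) in U-OEx LE against E-OEX LE. The block added Cxcl16, Tnfaip6 and Tnfrsf11a, all higher, to the calls for E-OEX GE.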
